A study of Mus musculus with 6 samples.

Results

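Ybx1, Ybx3 and Carhsp1 are genes of proteins with a cold-shock domain, a small beta-barrel fold that binds single-stranded RNA and DNA. They were taken by symbol from the deposited table of FPKM values (fragments scaled by gene length and library total), and all 3 had a row among its 16423 genes. Ybx1 was the target of the siRNAs in this series, so its values also check the labels. The cells were C3H10T1/2, a mouse mesenchymal cell line, given adipogenic medium with 3-isobutyl-1-methylxanthine, dexamethasone, insulin, triiodothyronine, indomethacin and rosiglitazone, and then medium with triiodothyronine, insulin and rosiglitazone. Transfection was on day 4 of differentiation and total RNA was taken 48 h later, from wild-type cells given a control siRNA (siNC, 3 libraries) and from cells given siRNAs against YBX1 (siYBX1, 3 libraries). Both groups had the same differentiation, and the labels name a single cell line. Whether the replicates were grown apart is not stated in the labels, and the p-values therefore speak only of variation among these 6 libraries, part of which may be technical. The siRNA sequences and the protein levels were not analysed here.

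YBX1 is an abundant protein of cytoplasmic messenger ribonucleoprotein particles, where it packages mRNA and affects its translation and stability. It also enters the nucleus, takes part in transcription and splicing, and reads 5-methylcytosine in RNA. The family takes its name from the Y-box, an inverted CCAAT element of promoters. YBX3 is the closest relative of YBX1 in somatic tissues, and YBX2 is best known from germ cells. CARHSP1 is a small protein with a single cold-shock domain that is regulated by calcineurin and binds mRNA, among others that of tumour necrosis factor.

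The coding sequences of Ybx1 and Ybx3 are shown because a shared stretch could be met by the same siRNA or give reads that belong to either gene. Coding exons 2 to 4, which lie within the part that encodes the cold-shock domain, have the same lengths in both genes and form 188 bases once spliced. The stretches below are from GENCODE vM21 (build GRCm38), are written 5′ to 3′ on the coding strand, and have capitals where the genes differ. In that build they span chr4:119282781-119293805 for Ybx1 and chr6:131380876-131384566 for Ybx3, introns included, both on the minus strand. The deposited values were made on GRCm39, per the submitters' processing notes.
Ybx1: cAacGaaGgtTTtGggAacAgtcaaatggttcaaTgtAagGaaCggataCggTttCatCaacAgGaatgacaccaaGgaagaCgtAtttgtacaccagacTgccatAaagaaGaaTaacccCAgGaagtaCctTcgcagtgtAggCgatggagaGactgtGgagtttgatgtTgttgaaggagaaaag
Ybx3: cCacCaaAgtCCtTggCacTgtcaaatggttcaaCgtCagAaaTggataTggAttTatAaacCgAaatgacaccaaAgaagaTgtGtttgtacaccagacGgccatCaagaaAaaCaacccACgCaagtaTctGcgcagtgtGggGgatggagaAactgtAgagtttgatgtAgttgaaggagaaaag
They differed at 35 of 188 bases, an identity of 81.4%. The differences were spread along the stretch. The longest run of bases that the whole Ybx1 and Ybx3 mRNA models shared was 20 bases long, and began inside this stretch and ended in the next exon.
Shared by Ybx1 and Ybx3: gttgaaggagaaaagggtgc
The longest run shared with Ybx1 was 26 bases for Ybx2 and 14 for Carhsp1. Processed pseudogenes, which are copies of an mRNA in the genome, came closer. For Ybx1, 8 of them held a run of at least 40 identical bases, the longest of 149 bases, and for Carhsp1 there was 1, with a run of 175 bases. No gene outside its own held such a run for Ybx3. These copies were not analysed here, and how reads shared with them were counted is not given in the sources used here, so the levels of Ybx1 and Carhsp1 are uncertain to that extent.

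Library totals recovered from the FPKM steps were 31957411 to 35410308 reads. The cells had adipocyte transcripts in both groups, and 1 of 7 tested adipocyte markers was called (14.3%, beside 20.6% of all tested genes), Cfd, the complement factor adipsin, which fell (log2 fold change -0.32, adjusted p = 0.0136, limma) with groups that did not overlap. Cebpa, the remaining listed marker, was too low to test, at 0.226 to 0.626 FPKM over the 6 libraries. The summed level of the 8 adipocyte markers was 2260 FPKM in siNC replicate 1, against 3083 to 3121 FPKM in the other siNC libraries and 2740 to 3199 FPKM in siYBX1. That library stood apart, so the members' changes are also given without it. The 4 macrophage markers summed to 10.9 to 24.4 FPKM in siNC and 6.83 to 11.2 FPKM in siYBX1, nearly all of it Cd68, and the defining markers Ptprc and Adgre1 were at 0 in every siYBX1 library and at most 0.00965 FPKM in siNC. The 5 mesenchymal markers with a row summed to 509 to 530 FPKM in siNC and 468 to 490.5 FPKM in siYBX1, nearly all of it Ly6a. Of these, 1 of 3 tested was called (33.3%, beside 20.6% of all tested genes), Eng, which fell (-0.39, adjusted p = 0.0142, limma). Below the filter, Cd34 had a lower mean in siYBX1 (0.253 and 0.143 FPKM, no overlap) and Thy1 a higher one (0.194 and 0.312 FPKM, overlapping). Endothelial markers summed to at most 0.0667 FPKM. The smooth muscle markers Acta2 and Tagln were higher in siYBX1, and the 4 genes of that list, nearly all of it Acta2, summed to 1697 to 1762 FPKM, against 493 to 544 FPKM in siNC. The other 2 were too low to test and had lower means in siYBX1, with Myh11 at a mean of 0.134 FPKM in siNC and 0.0887 FPKM in siYBX1 (no overlap), and Cnn1 at 0.0720 to 0.140 FPKM and 0.0696 to 0.0771 FPKM (overlapping). Their part in the members' values was not tested.

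Ybx1 mRNA fell in every siYBX1 library. It was 135, 134 and 130 FPKM in siNC replicates 1 to 3, and 59.3, 67.9 and 61.3 FPKM in siYBX1 replicates 1 to 3. The groups did not overlap, and the lowest control value was 1.91 times the highest knockdown value. Set against the siNC mean, 44.6%, 51.1% and 46.1% of the mRNA remained in siYBX1 replicates 1 to 3. The knockdown was thus deepest in replicate 1 and shallowest in replicate 2, and these libraries differed by 3.39 percentage points (SD, n = 3). The mean fell from 133 ± 2.98 to 62.9 ± 4.50 FPKM (SD, n = 3 each). In limma this was a log2 fold change of -1.07 with an SE of 0.06 and an interval (95% confidence) from -1.20 to -0.94 (adjusted p = 3.98e-06). In the same fit 2132 of 10341 tested genes (20.6%) were called, 987 higher and 1145 lower, or 662 higher and 1573 lower with each library rescaled to TPM (values that sum to the same total in every library). Ybx1 had the third largest fall among all tested genes, as rank 3 of 10341, and rank 12 by the size of the change in either direction. It passed under all 14 alternative settings, with log2 fold changes from -1.16 to -1.03, and was at -1.06 without siNC replicate 1.

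Ybx1 stayed well expressed after the knockdown. By deposited FPKM it ranked 514 of 16423 genes in siNC and 1139 in siYBX1. Between 18088 and 18585 reads lay on Ybx1 in the siNC libraries, and 7499, 9513 and 8085 in siYBX1 replicates 1 to 3. Counting error was therefore small beside the spread between libraries.

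**Figure D1:**
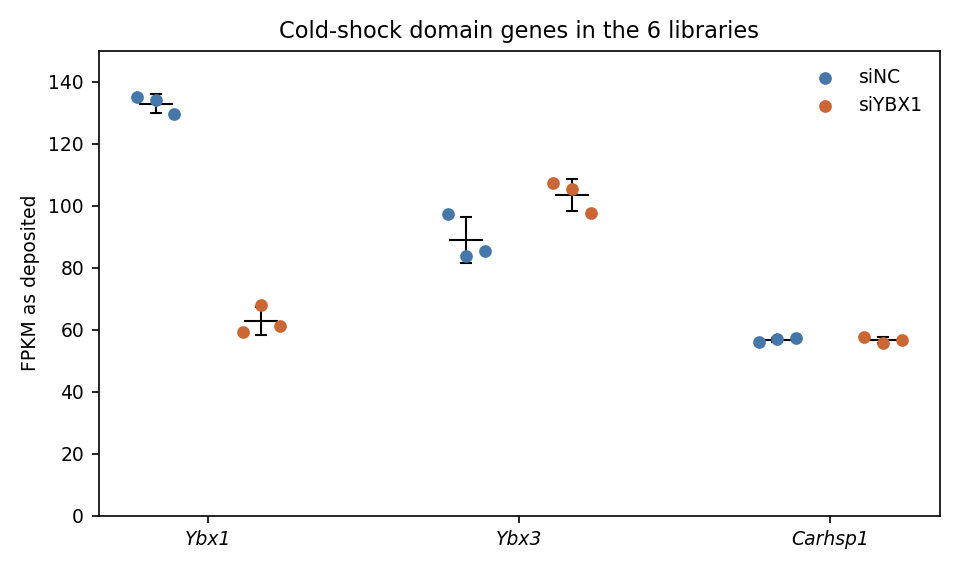
Deposited FPKM (y axis) of the 3 cold-shock domain genes (x axis) in 3 siNC (blue) and 3 siYBX1 (orange) libraries; points are libraries in the order of their numbers, and bars are the mean and SD. Ybx1 drops from 130-135 to 59.3-67.9 FPKM, the siYBX1 points of Ybx3 lie above the siNC points, and Carhsp1 stays between 55.7 and 57.7 FPKM.

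Ybx3 was slightly higher in siYBX1. It was 97.4, 83.9 and 85.3 FPKM in siNC replicates 1 to 3, and 107, 105 and 97.6 FPKM in siYBX1 replicates 1 to 3. The groups did not overlap, but siNC replicate 1 and siYBX1 replicate 3 were almost equal. Groups that did not overlap were seen for 40.9% of tested genes. Means were 88.9 ± 7.39 and 103 ± 5.16 FPKM (SD, n = 3 each), a ratio of 1.16. limma gave a log2 fold change of 0.22 with an SE of 0.07 and an interval (95% confidence) from 0.07 to 0.37 (adjusted p = 0.0421). In that fit 9.54% of tested genes were called higher, and 952 genes had a larger rise than Ybx3. The call was close to the threshold and was lost in 9 of 14 alternative settings. It was lost when siNC replicate 2 (0.18, adjusted p = 0.120, limma) or siNC replicate 3 (0.19, adjusted p = 0.129) was left out, and likewise for siYBX1 replicate 1 (0.19, adjusted p = 0.139) or siYBX1 replicate 2 (0.20, adjusted p = 0.122). Rescaling to TPM (0.17, adjusted p = 0.105) and quantile normalization (0.14, adjusted p = 0.184) also ended it. Without siNC replicate 1, the control library in which Ybx3 was highest, the rise was 0.28 (adjusted p = 0.00452, limma). All 14 alternatives gave a positive value, from 0.14 to 0.28.

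Carhsp1 hardly moved. It was 56.0, 57.1 and 57.2 FPKM in siNC replicates 1 to 3, and 57.7, 55.7 and 56.7 FPKM in siYBX1 replicates 1 to 3, so the groups overlapped. limma gave a log2 fold change of -0.0013 with an SE of 0.05 (adjusted p = 0.986), and its 95% confidence interval from -0.11 to 0.10 bounds the change this comparison allows. The highest of the 6 libraries was 1.04 times the lowest, against a median of 1.25 over all tested genes. Only 6 of 10341 tested genes had a narrower range, which makes Carhsp1 rank 7, but genes of like read depth were not compared apart. No alternative called it, and values ran from -0.05 with TPM to 0.02 after a correction for gene length. Without siNC replicate 1 the value was -0.01 (adjusted p = 0.895, limma). Between 5725 and 6268 reads lay on Carhsp1 in each library.

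**Figure D2:**
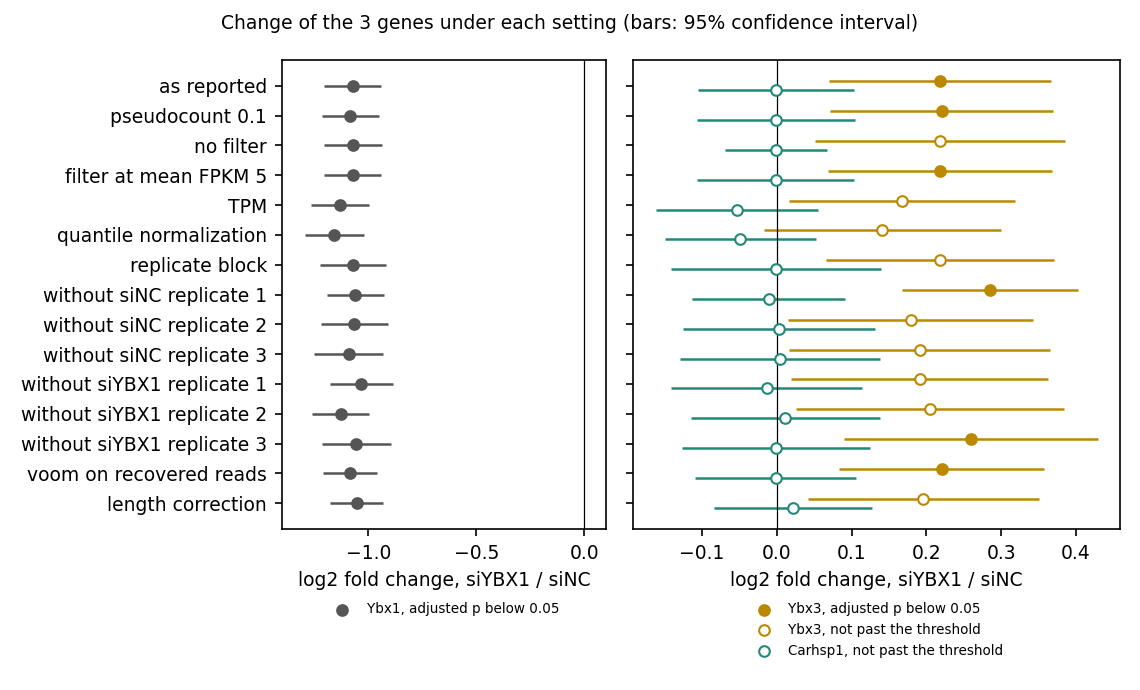
Log2 fold change of siYBX1 against siNC (x axis) under each setting (y axis) for Ybx1 (left) and for Ybx3 and Carhsp1 (right); points are estimates, bars 95% confidence intervals, and filled points passed an adjusted p of 0.05 in limma. Ybx1 stays between -1.16 and -1.03 and is filled throughout, Ybx3 lies between 0.14 and 0.28 and is open in 9 of 14 alternatives, and Carhsp1 lies near 0 and is open throughout.

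The responses of the 3 genes were compared within each library. On the log2(FPKM + 1) scale, Ybx3 minus Ybx1 went from -0.58 ± 0.10 in siNC to 0.71 ± 0.12 in siYBX1 (SD, n = 3 each), a difference of 1.29. Carhsp1 minus Ybx1 went from -1.21 ± 0.05 to -0.14 ± 0.12, a difference of 1.07. Carhsp1 minus Ybx3 went from -0.64 ± 0.13 to -0.85 ± 0.07, a difference of -0.22. The first 2 differences had groups that did not overlap, with p = 0.1 in an exact two-sided permutation test. This is the smallest p that 3 against 3 libraries allow, and the adjusted p was 0.15 over the 3 comparisons. Both subtract Ybx1, the siRNA target, so its own log2 fold change of -1.07 enters them. They are therefore no separate evidence of a response of Ybx3 or Carhsp1. The third had overlapping groups (exact permutation p = 0.2). At 3 libraries a group this test cannot pass 0.05.

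Together the 3 genes summed to 279 ± 8.68 FPKM in siNC and 223 ± 6.79 FPKM in siYBX1 (SD, n = 3 each; exact permutation p = 0.1), which is 80.0% of the control sum. The groups did not overlap. The gain in Ybx3 was 14.5 FPKM against a loss of 70.1 FPKM in Ybx1, both as differences of group means. By deposited FPKM the share of Ybx1 in the sum went from 47.7% ± 0.971 to 28.2% ± 1.63, and that of Ybx3 from 31.9% ± 1.69 to 46.4% ± 1.33 (SD, n = 3 each). The share of Carhsp1 went from 20.4% ± 0.863 to 25.4% ± 1.01, although its level hardly moved. Shares and ratios to Ybx1 rise when Ybx1 falls, so they do not measure a gene's own change. The ratio of Ybx3 to Ybx1 was 0.721, 0.625 and 0.659 in siNC replicates 1 to 3, and 1.81, 1.55 and 1.59 in siYBX1 replicates 1 to 3. On this scale Ybx1 was the most abundant of the 3 in every control library and Ybx3 in every knockdown library. Carhsp1 remained below Ybx1, at 0.972, 0.820 and 0.925 of its level in siYBX1 replicates 1 to 3.

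That order depends on the gene length behind the FPKM. The length that turns the Ybx1 values into whole reads was 3955 bases, 2.43 times the 1628 bases of the first Ybx1 mRNA model in GENCODE vM21. For Ybx3 the lengths were 1862 and 1853 bases and for Carhsp1 3106 and 2858 bases. Changes between groups within a gene do not depend on this length, but levels of one gene against another do. When the recovered reads were divided by the mRNA model lengths, Ybx1 was at 323 ± 7.24 reads per kilobase (scaled to the library total as in FPKM) in siNC and 153 ± 10.9 in siYBX1, Ybx3 at 89.3 ± 7.43 and 104 ± 5.18, and Carhsp1 at 61.7 ± 0.732 and 61.6 ± 1.08 (SD, n = 3 each). On that scale Ybx1 was the most abundant of the 3 in all 6 libraries, with a share of 68.2% in siNC and 48.0% in siYBX1. The ratio of Ybx3 to Ybx1 was then 0.748, 0.641 and 0.658 in siYBX1 replicates 1 to 3, and the sum of the 3 genes fell to 67.1% of the control. Reads were counted over the longer model, so this scale may overstate Ybx1.

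**Figure D3:**
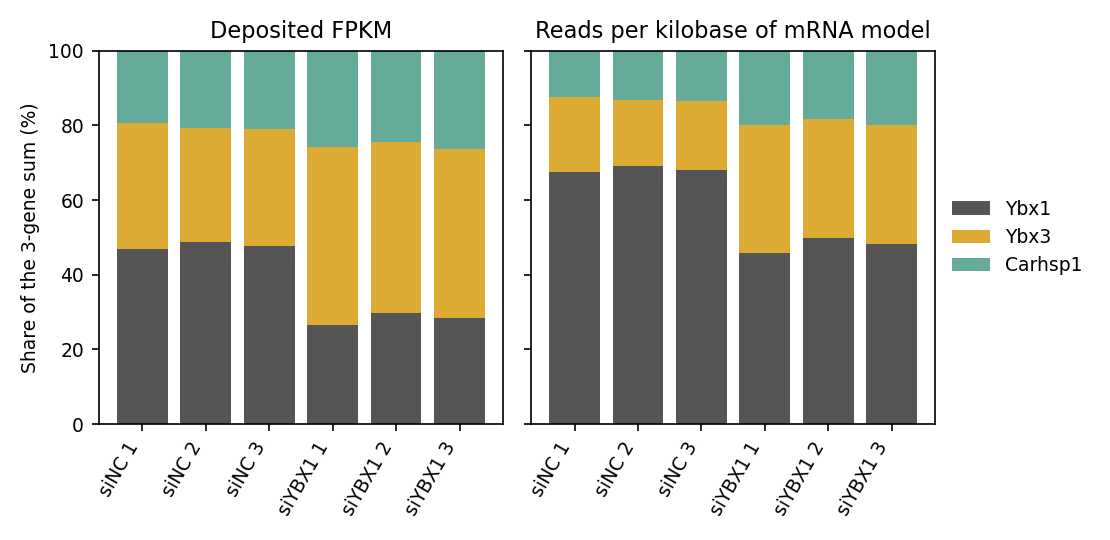
Share of Ybx1, Ybx3 and Carhsp1 in their sum (y axis, percent) in each library (x axis), from deposited FPKM (left) and from recovered reads per kilobase of the first GENCODE mRNA model (right). Ybx1 is the smaller part beside Ybx3 in siYBX1 on the left (26.4% to 29.7% against 45.3% to 47.8%) and the larger part on the right (45.8% to 49.8% against 31.8% to 34.3%).

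Ybx2, Csdc2 and Lin28b, further genes of cold-shock domain proteins, lay below the mean of 1 FPKM that the test required. Ybx2, the germ cell member, was between 0.443 and 0.756 FPKM in all 6 libraries, with 31 to 56 reads each and overlapping groups. Csdc2, an RNA-binding protein with a cold-shock domain best known from brain, was near the floor of the data. It was 0.139, 0.0822 and 0.102 FPKM in siNC replicates 1 to 3, and 0.0126, 0.0227 and 0.0361 FPKM in siYBX1 replicates 1 to 3. The smallest whole reads behind these values were 28 over the siNC libraries and 6 over the siYBX1 libraries, a ratio per library total of 0.222 with an exact 95% interval of 0.0751 to 0.546, which covers counting error only. With no filter on low values Csdc2 passed (log2 fold change -0.11 on the log2(FPKM + 1) scale, adjusted p = 0.0319, limma), in a fit that called 7.56% of 16423 genes. Lin28b, a regulator of let-7 microRNAs, was listed at 0 in 5 libraries and at 0.00282 FPKM in siYBX1 replicate 2. With a value in a single library the recovery of reads always gives 1, so its read count is not known.

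YBX1 works in complexes with other RNA-binding proteins, and 33 of 34 listed partners were abundant enough to test. In siYBX1 3 rose and 3 fell, or 18.2% of those tested, beside 20.6% of all tested genes. The median log2 fold change was 0.0082, and -0.01 over all tested genes. Igf2bp2, which binds and stabilises mRNAs, was 30.0, 27.7 and 27.8 FPKM in siNC and 36.7, 35.2 and 37.4 FPKM in siYBX1 replicates 1 to 3, without overlap (log2 fold change 0.34, SE 0.05, adjusted p = 0.00217, limma). Fxr1, a relative of the fragile X protein, was 37.9, 43.6 and 40.4 FPKM in siNC and 50.4, 50.5 and 48.2 FPKM in siYBX1 (0.29, adjusted p = 0.00806). Serbp1, an mRNA- and ribosome-binding protein, had a log2 fold change of 0.24 (adjusted p = 0.0214), a call lost in 6 of the 14 alternatives: without siNC replicate 3, without siYBX1 replicate 1, without siYBX1 replicate 2, with no filter (adjusted p = 0.0712), with quantile normalization (0.0509) and with the replicate block (0.0503).

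Purb, which binds purine-rich single strands and is known to act with YBX1 at the smooth muscle actin gene Acta2, fell. It was 11.9, 12.1 and 11.7 FPKM in siNC and 10.1, 9.65 and 9.87 FPKM in siYBX1 replicates 1 to 3, with no overlap (-0.24, SE 0.05, adjusted p = 0.0104, limma). Like Igf2bp2 and Fxr1, it was called in all 14 alternatives. Its relative Pura was 3.40 to 3.58 FPKM in siNC and 3.07 to 3.49 FPKM in siYBX1 (-0.07, adjusted p = 0.481). The stress granule protein gene G3bp2 (-0.19, adjusted p = 0.0246, limma) and the RNA helicase gene Ddx3x (-0.17, adjusted p = 0.0348) fell too. Those calls were lost in 6 and 7 of the 14 alternatives, and for both these included leaving out siNC replicate 2, siNC replicate 3, siYBX1 replicate 2 or siYBX1 replicate 3, and for Ddx3x also siYBX1 replicate 1. Across the list the count of calls was 3 without siNC replicate 3 and 3 without siYBX1 replicate 2. Over all 10341 tested genes the calls fell too, from 2132 to 1428 and 1306 in those settings.

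Genes that are widely named as bound or regulated by YBX1 moved both ways. Among the 32 that could be tested 5 were called higher and 9 lower, which is 43.8% beside 20.6% of all tested genes, and the median log2 fold change was -0.04. This list was put together with earlier results of these data known and so is not independent evidence. The count was 10 to 11 when a single library was left out, and 7 with no filter on low values. Over all genes the calls fell too, to between 1199 and 2026 of 10341 without a single library. With no filter they were 1241 of 16423 (7.56%). Acta2, which YBX1 is known to repress together with the Pur proteins, was 484, 537 and 533 FPKM in siNC and 1711, 1643 and 1659 FPKM in siYBX1 replicates 1 to 3 (limma log2 fold change 1.69, SE 0.07, adjusted p = 2.61e-07). The lowest knockdown library was 3.06 times the highest control library. Actin genes are alike in sequence, and how shared reads were counted is not given in the sources used here. The collagen gene Col1a1 rose by 0.36 (adjusted p = 0.0102, limma), but did not pass with quantile normalization (0.23, adjusted p = 0.141) or with no filter (adjusted p = 0.0607). The transcription factor gene Myc was 9.79 to 11.1 FPKM in siNC and 12.5 to 15.4 FPKM in siYBX1 (0.35, adjusted p = 0.0110, limma), and did not pass with no filter (adjusted p = 0.0608).

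The largest falls in that list were those of the mitotic cyclins Ccnb1 (-0.48, SE 0.07, adjusted p = 0.00160, limma) and Ccna2 (-0.40, adjusted p = 0.00235) and of the matrix metalloproteinase gene Mmp2 (-0.39, adjusted p = 0.000778). Mmp2 was 59.8, 57.9 and 60.2 FPKM in siNC and 43.1, 46.1 and 45.8 FPKM in siYBX1 replicates 1 to 3. Pink1, the kinase gene that starts mitophagy, was 37.7, 35.9 and 35.2 FPKM in siNC and 31.5, 33.4 and 32.7 FPKM in siYBX1. Its groups did not overlap, but it did not pass (-0.15, SE 0.05, adjusted p = 0.0621, limma). It was called on the TPM scale (-0.21, adjusted p = 0.0298), after quantile normalization (-0.18, adjusted p = 0.0385) and after the length correction (-0.16, adjusted p = 0.0443).

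**Figure D4:**
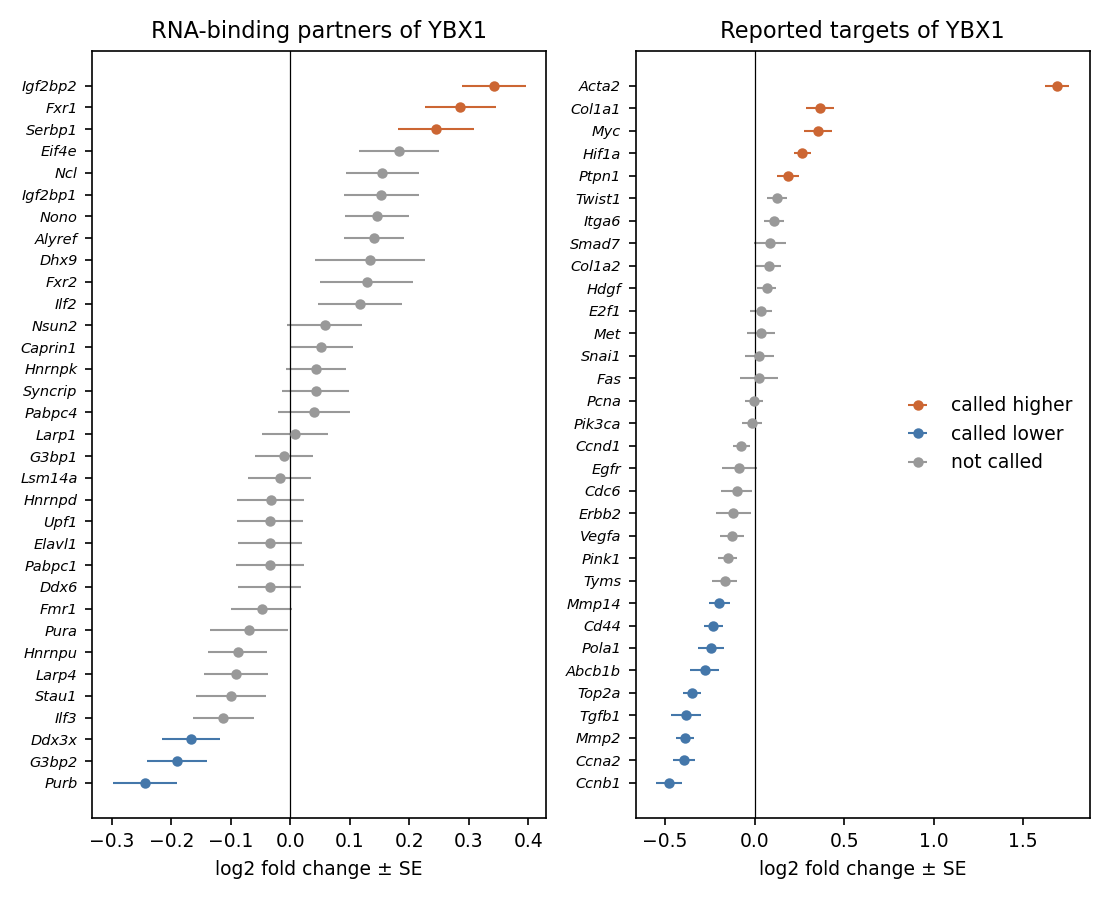
Log2 fold change of siYBX1 against siNC (x axis, point) with its SE (bar) for each tested gene (y axis) of the partner list (left, 33 genes) and of the list of reported targets (right, 32 genes); orange genes were called higher, blue lower and grey not called. The partners spread evenly around 0, with 3 calls on either side, and Acta2 lies far to the right of the other reported targets, at 1.69.

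The genes whose profile over the 6 libraries lay nearest to that of Ybx1 were found by the root mean square difference of log2 values, each set against its own siNC mean, over 7337 genes whose mean reached 5 FPKM. Ybx1 itself is the siRNA target, so this is a description without a test. The nearest was Scara5, a ferritin receptor, with a root mean square difference of 0.14 on the log2 scale, followed by Timp2, a metalloproteinase inhibitor (0.18), complement C3 (0.20), the fibrillin gene Fbn1 (0.22) and D17H6S56E-5 (0.22). All 5 fell less than Ybx1, to 53.2% of the control mean for Scara5, 56.3% for Timp2, 55.7% for C3, 56.6% for Fbn1 and 57.3% for D17H6S56E-5, against 47.3% for Ybx1. Scara5 was 80.8, 84.7 and 80.7 FPKM in siNC and 42.2, 43.6 and 45.1 FPKM in siYBX1 replicates 1 to 3. Ybx1 was highest in siYBX1 replicate 2 among the knockdown libraries, and so were 3 of the 5 genes. The 5 were chosen by likeness over these same libraries, so that count is no separate evidence. For Fbn1 the margin was small, with 11.4 FPKM in siYBX1 replicate 2 and 11.3 FPKM in siYBX1 replicate 3.

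**Figure D5:**
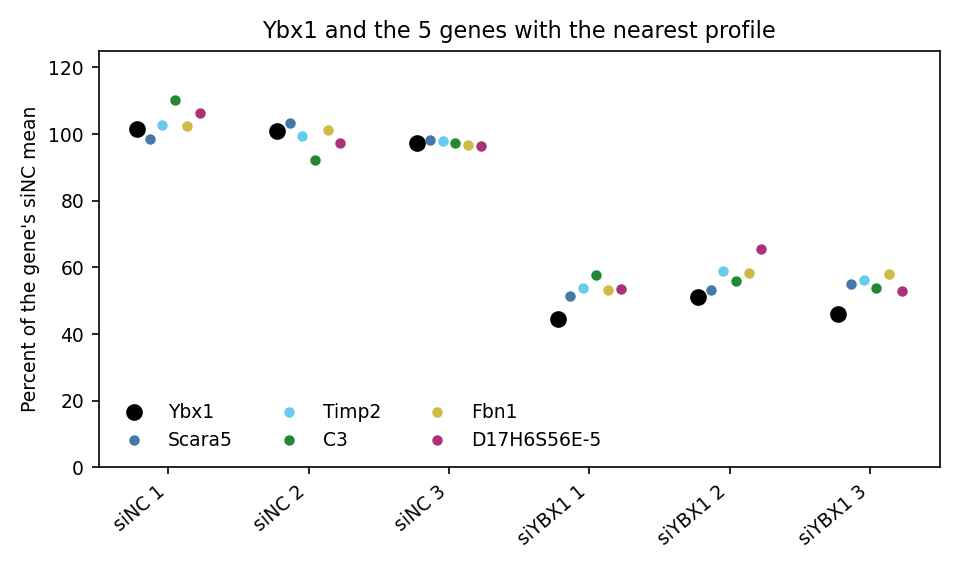
Level of Ybx1 and of the 5 genes with the nearest profile (y axis, percent of each gene's siNC mean) in each library (x axis); each point is 1 library. All 6 genes lie near 100% in siNC, and in every siYBX1 library Ybx1 (44.6%, 51.1% and 46.1%) lies below the other 5.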

How the data were processed

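Libraries were made from 1.3 µg of Trizol-extracted total RNA, according to the protocols in the labels. Reads were handled with fastp, HISAT2 and HTSeq and the build GRCm39 was used, per the submitters' processing notes, which give no versions and no order of steps. The authors deposited FPKM values for 16423 gene symbols, with 1 column per library, and its con and si columns were assigned to siNC and siYBX1 by name, each with its replicate number.

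limma 3.58.1 (in R 4.3.3) was run with a trend on intensity, on log2(FPKM + 1), two-sided, over all genes whose mean reached 1 FPKM, with Benjamini-Hochberg adjustment and a threshold of 0.05. Fold changes are on that scale, which understates the change of low genes. Library totals were recovered from the steps between low FPKM values with GENCODE vM21 exon lengths, and each gene's length as the smallest that made all its values whole reads (tolerance 0.02 reads). Read numbers are too small where they share a divisor, which is likeliest at few reads. This worked for 16414 of 16423 genes (99.945%). Exact permutation tests used scipy 1.17.1 (Python 3.11.15). limma was also run on simulated reads with the same variation set for every gene, which does not test the calls made here.

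The members and lists were chosen with earlier results of these data known. Beside the members and other cold-shock genes, the text names the 3 largest called rises and falls of each list, Pura, Purb, Acta2, Pink1 and the 5 genes nearest to Ybx1, without Gm, Rik and LOC symbols. Some genes that this rule takes are left out here. Alternatives added after seeing the data were voom (limma) on recovered reads, for genes averaging 10 reads or more, the length correction (loess, span 0.3) and the scale per mRNA model.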

Additional observations from a re-analysis of the deposited data

How the results depend on the processing

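Ybx1 passed under all 14 alternatives and Carhsp1 under none. Ybx3 kept its direction in all 14 but did not pass with no filter on low values (log2 fold change 0.22, adjusted p = 0.113, limma), TPM (0.17), quantile normalization (0.14), the replicate block (0.22, adjusted p = 0.0617) or the length correction (0.20, adjusted p = 0.0726), and leaving out 1 library gave 0.18 to 0.28. The count of called genes went from 2132 to 1241 with no filter, 1346 with the replicate block and 1199 to 2026 without 1 library. With TPM 662 genes were higher and 1573 lower, against 987 and 1145. In the partner list 6 calls became 3 with the replicate block and 3 to 7 without 1 library. In the list of reported targets 14 calls became 7 with no filter. In the cold-shock domain list 2 of 3 tested genes were called (66.7%, beside 20.6% of all tested genes). One of these calls was the siRNA target Ybx1. The 2 calls became 1 with TPM, 1 with quantile normalization, 1 with the replicate block, 1 after the length correction, and 1 to 2 without 1 library. With no filter the 2 calls were Ybx1 and Csdc2, both lower. The members' sum, 80.0% of the control, was 77.1% with TPM and 67.1% per kilobase of mRNA model. The difference between Ybx3 and Ybx1 stayed at 1.22 to 1.34, which includes the fall of Ybx1 itself. Same-numbered deviations from the group means correlated at -0.31, -0.13 and -0.25, and differently numbered ones at -0.13 to 0.26. With 3 libraries a group these values cannot decide whether the replicate numbers pair the libraries. Of 265 values for 19 other named genes under these alternatives, 240 kept their side of the threshold, 22 no longer passed and 3 newly passed. No value changed direction where either fit passed. Pura, which was not called, went from -0.07 to 0.0062 after the length correction. Other causes were not tested. Precision at Csdc2, Ybx2 and Lin28b is limited by few reads.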
